A study of Rattus norvegicus with 18 samples.

Results

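Solute carriers are membrane proteins that move sugars, amino acids, ions, metals, nucleotides, vitamins and metabolites across the cell surface and the membranes of organelles. In the RNA table of this series, rat testis was compared between chronic sleep restriction (CSR) and control, and every row whose RefSeq transcript identifier maps to a rat symbol starting with Slc and a digit was taken as a member. The rule found 108 rows of 105 genes among 7016 rows. Of these genes 102 had 1 row, and *Slc25a3*, *Slc3a2* and *Slc44a1* had 2 each, which were kept apart. *Slc7a6os* came in through its symbol; it is named for lying beside *Slc7a6* and is not a carrier.

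All libraries came from testes of wistar rats aged 8 weeks. The CSR group has 3 RNA libraries of animals under chronic sleep restriction, and the control group has 3. The labels give neither the method nor the length of the restriction. They leave unsaid whether the libraries of a group come from separate animals, so the p-values reflect the spread among these samples, possibly a technical one. Control libraries 1 and 2 carry codes that are alike except for the final digit. Values are FPKM, fragments scaled by transcript length and by the mapped fragments of the library, a scale on which levels can be compared between genes; the read depth behind them is unknown.

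In the testis, carriers serve cells with different needs. Sertoli cells take up glucose and pass lactate to germ cells through monocarboxylate carriers, which work with the partner protein basigin. Germ cells behind the blood-testis barrier depend on carriers for amino acids, nucleosides, zinc and carnitine, and sperm depend on ion exchangers that set the pH of the cell. Many amino acid carriers are pairs of a heavy chain, encoded by *Slc3a2*, that brings the complex to the cell surface, and a light chain of the Slc7 family that forms the transport path.

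The tissue label was checked against marker genes. The elongating spermatid list had 10 of 12 genes in the table, with summed levels of 20011 to 23380 FPKM in CSR libraries and 12490 to 22024 FPKM in control libraries. The round spermatid list had 9 of 12 genes (492 to 594 FPKM in CSR, 428 to 548 in control), and the meiotic spermatocyte list had 5 of 10 (158 to 204 in CSR, 112 to 201 in control). In the meiotic list *Ccna1* was called as higher, with 10.7, 5.59 and 6.06 FPKM in CSR, against 0.875, 0.841 and 0.735 in control (limma, adjusted p 0.0421). *Hormad1* went the other way without overlap and was not called. Of the meiotic rows 2 were positive and 3 negative. Sertoli genes (10 of 17) summed to 165 to 189 FPKM in CSR and 143 to 176 in control, and Leydig genes (6 of 8) to 71.8 to 121 in CSR and 70.5 to 92.3 in control. In the Sertoli list *Defb36* read 57.8, 60.7 and 43.4 FPKM in CSR, against 9.50, 7.91 and 46.5 in control. Without *Defb36* the Sertoli sums of all CSR libraries lie below those of control. The log2 fold change was positive in 5 and negative in 5 Sertoli rows. Peritubular myoid genes (7 of 8) summed to 21.6 to 26.1 FPKM in CSR and 23.0 to 28.4 in control. Of these, *Col1a1* was listed at 0 throughout CSR, against 2.30, 2.14 and 2.73 FPKM in control, and was called as lower (limma, adjusted p 0.0421). Macrophage genes (4 of 9) summed to 5.21 to 7.67 FPKM in CSR and 8.18 to 10.5 in control. Spermatogonial genes (2 of 8) summed to 37.2 to 47.1 FPKM in CSR and 33.4 to 47.1 in control. Blood genes (3 of 5) summed to 3.02 to 25.5 FPKM in CSR and 6.00 to 29.3 in control. Of these, *Hbb-b1* was listed at 0 throughout CSR and *Hbb* throughout control. No gene of the endothelial and epididymal lists was in the table. Across the table control libraries 1 and 2 stood apart from the CSR libraries. Over tested rows on the log2 scale they correlated at 0.932 with each other and at 0.874 to 0.892 with CSR libraries. The CSR libraries correlated at 0.908 to 0.914 with each other. Control library 3 correlated at 0.911 to 0.921 with CSR libraries, against 0.904 and 0.913 with control libraries 1 and 2. Named after their values were seen, *Prm1*, a sperm protamine, read 3029, 2572 and 968 FPKM in CSR, against 0.0934, 0.0981 and 877 in control, and *Izumo1*, a sperm protein of egg fusion, read 26.8, 28.1 and 32.2 FPKM in CSR, against 1.06, 0.482 and 30.7 in control. *Prm2*, the other protamine, was likewise under 1 FPKM in control libraries 1 and 2 alone. Not all genes of the spermatid lists were low there. *Tnp1* read 3903, 7202 and 7415 FPKM in CSR, against 4298, 4411 and 7730 in control. *Hook1* read 36.5, 34.2 and 35.5 FPKM in CSR, against 42.2, 47.0 and 38.4 in control. The log2 fold change, CSR over control, was positive in 10 of 11 elongating and 7 of 10 round spermatid rows. These are bulk samples, in which fewer cells of a type and less RNA per cell cannot be told apart.

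*Slc3a2*, the heavy chain gene of amino acid carriers, was the place of the clearest difference. Its transcript NM_001271089 fell in CSR while its transcript NM_019283 stood higher there, so the gene's total overlapped between groups while its makeup differed. RefSeq lists 3 transcripts of *Slc3a2*, 2 of them curated, and both curated transcripts are rows of the table. The RefSeq promoter table of assembly GRCr8 gives the gene 2 start sites on the minus strand of chromosome 1, which lie 8394 bases apart. It does not say which transcript begins at which. The windows hold 250 bases before and 50 after each start and are shown because the rows of this gene differed; capitals mark ACGTCA, the core of the binding site of CREB, CREM and ATF factors, and GGGCGG, the core of the Sp1 site, on either strand.
Upstream start, chr1:215048015-215048314: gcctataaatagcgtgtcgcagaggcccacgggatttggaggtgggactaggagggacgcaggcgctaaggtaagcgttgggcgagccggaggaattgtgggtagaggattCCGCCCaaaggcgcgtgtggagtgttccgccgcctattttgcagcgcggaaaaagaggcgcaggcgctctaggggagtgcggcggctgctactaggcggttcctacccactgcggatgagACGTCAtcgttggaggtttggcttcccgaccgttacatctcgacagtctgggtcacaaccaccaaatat
Downstream start, chr1:215039621-215039920: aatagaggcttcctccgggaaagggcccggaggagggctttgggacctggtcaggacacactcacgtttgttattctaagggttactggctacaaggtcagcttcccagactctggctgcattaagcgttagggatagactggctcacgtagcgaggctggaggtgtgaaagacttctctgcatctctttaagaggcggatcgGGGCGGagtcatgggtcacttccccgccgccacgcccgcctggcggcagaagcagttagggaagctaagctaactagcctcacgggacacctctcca

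The windows differ in letters as well as in place. The upstream window holds 26 CpG dinucleotides and the downstream window 15, at 59.3% and 57.3% G and C. ACGTCA occurs once upstream and not downstream, and 7.94% of all 33469 windows in the RefSeq table hold it on either strand. GGGCGG occurs once in each window, and 33.1% of all windows hold it. The full palindrome TGACGTCA, which contains ACGTCA, is in neither window and in 1.83% of all. Among the carrier genes 87 of 105 matched the table, with 94 windows, of which 63.8% hold GGGCGG and 11.7% hold ACGTCA on either strand. The core of the NF-Y site, CCAAT, is in neither *Slc3a2* window, against 36.2% of carrier windows and 37.5% of all. TATAAA occurs once in the upstream window and not in the downstream one, and is in 7.45% of carrier windows and 14.2% of all. These matches describe letters and do not show binding.

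*Slc3a2* NM_001271089 read 1.98, 2.63 and 2.05 FPKM in CSR libraries 1 to 3, against 17.4, 17.5 and 14.2 FPKM in control libraries 1 to 3. The groups stand far apart, with every control library far above the highest CSR library. The log2 fold change was -2.43 (standard error 0.15), and limma over the whole table gave an adjusted p of 0.00482. Without control library 2 the adjusted p was 0.0616. With control library 3 as the only control, a fit chosen after seeing the data in which that library is assumed to vary like the CSR ones, the log2 fold change was -2.25 and the adjusted p 0.185. *Slc3a2* NM_019283 read 35.1, 38.6 and 28.8 FPKM in CSR, against 19.9, 22.3 and 23.5 FPKM in control. These groups do not overlap either, in the other direction, but the row did not pass the test (log2 fold change 0.61, standard error 0.14, adjusted p 0.208).

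The sum of both *Slc3a2* rows was 37.1, 41.2 and 30.9 FPKM in CSR, against 37.2, 39.8 and 37.8 FPKM in control, so the groups overlap. With the rows of each gene summed before the fit, the log2 fold change of *Slc3a2* was -0.08 with a standard error of 0.12 (adjusted p 0.736 by limma). NM_001271089 made up 5.34, 6.39 and 6.65% of that sum in CSR and 46.6, 44.1 and 37.6% in control. The difference of 36.7 percentage points reached the smallest p that 3 against 3 samples allow, an exact two-sided permutation p of 0.1. A test of each row against the other rows of its gene covered the 123 genes with more than 1 tested row (limma's diffSplice). It treats the rows of a gene as independent values, although they come from the same libraries. NM_001271089 stood at -3.04 on the relative log2 scale (standard error 0.23, adjusted p 1.26e-05). In that test 1.63% of the genes were called. With control library 3 as the only control it was -2.75 (adjusted p 0.0147). Both rows share parts of 1 gene, so their levels are estimates that divide common reads, and an error in that division would move them in opposite directions. Whether it did was not tested.

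**Figure D1:**
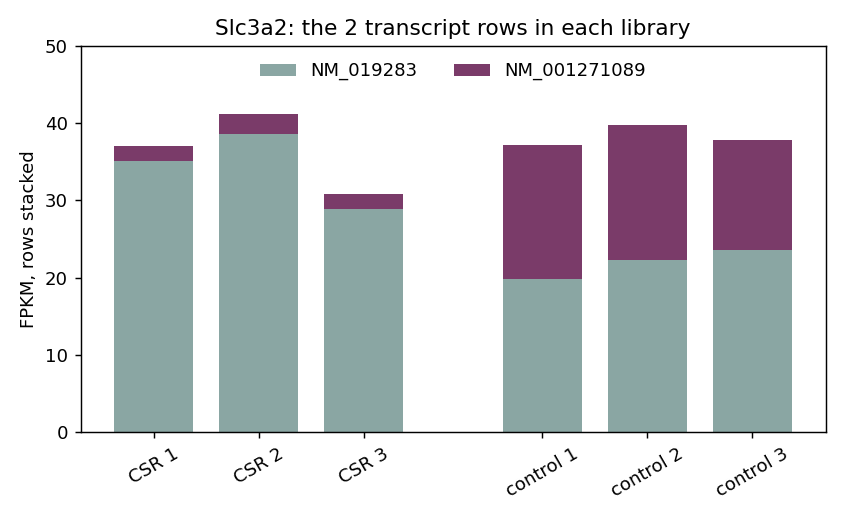
FPKM of both *Slc3a2* transcript rows, stacked, in each of the 3 CSR and 3 control libraries. NM_001271089 takes 5.34 to 6.65% of the stack in CSR libraries and 37.6 to 46.6% in control libraries, while the height of the stack overlaps between groups.

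The light chains that pair with the *Slc3a2* product were looked at after these values were seen. *Slc7a5* (NM_017353), the main carrier of large neutral amino acids, read 10.3, 12.9 and 8.32 FPKM in CSR, against 11.2, 8.14 and 7.19 FPKM in control. *Slc7a8* (NM_053442), which exchanges neutral amino acids, read 7.83, 9.003 and 8.28 FPKM in CSR, against 7.91, 8.44 and 7.86 in control. Both overlap between groups. *Slc7a6* (NM_001107424), which exchanges cationic for neutral amino acids, read 0.398, 5.13 and 1.58 FPKM in CSR, against 8.28, 9.30 and 5.46 in control. Its groups do not overlap, yet the CSR libraries are wide apart and it did not pass (log2 fold change -1.60, standard error 0.54, adjusted p 0.363). *Slc7a11* (NM_001107673), the light chain of the cystine-glutamate exchanger, was listed at 0 in CSR libraries 1 and 3 and read 1.38 FPKM in CSR library 2, against 1.45, 2.53 and 1.68 FPKM in control (adjusted p 0.367).

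Across the carriers as a whole, 91 of 108 rows reached at least 1 FPKM in at least 3 libraries and were tested, and the 17 others were too low. A single row, *Slc3a2* NM_001271089, was called (1.10% of the tested carrier rows), and it fell. Of all 5657 tested rows 0.442% were called, 0.23% as higher and 0.212% as lower in CSR. Of the tested carrier rows 67 had a negative and 24 a positive log2 fold change, a share of negative values of 73.6% against 56.0% over all tested rows. The median log2 fold change was -0.27 in carriers and -0.06 over all tested rows. The level filter can be met by the 3 libraries of either group alone, as by control in *Slc35a3*, and this fixes the sign of such rows. Among tested rows above 0 in all libraries, 41 of 64 carrier rows were negative, with a median of -0.18. Over all rows under that condition, 2309 of 4685 were negative, with a median of 0.01. The carrier median was -0.16 without CSR library 3 and -0.20 with control library 3 as the only control. It was -0.13 with a filter at 5 FPKM, -0.14 with a pseudocount of 5 and -0.42 with libraries scaled to equal sums. Groups did not overlap in 16 carrier rows lower in CSR (17.6%), against 12.6% of all tested rows. They did not overlap in 3 carrier rows higher in CSR (3.30%), against 8.96% of all. Among tested rows above 0 in all libraries, 11 carrier rows were lower and 3 higher without overlap, against 476 and 496 of all rows. An unadjusted p under 0.05 was found in 11 carrier rows lower and 2 higher in CSR, with 7.32% and 5.9% of all tested rows in those directions.

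The lower values were not limited to the weakest rows. Among carriers with a mean of at least 5 FPKM, 26 of 42 tested rows were negative with a median of -0.11, while 1537 of 3153 rows of that level in the whole table were negative with a median of 0.01. Among carriers under 5 FPKM, 41 of 49 were negative with a median of -0.42, against 1630 of 2504 rows and a median of -0.19 in the whole table. All carrier rows together summed to 831, 815 and 749 FPKM in CSR libraries and 911, 959 and 847 FPKM in control libraries. That was 0.567, 0.543 and 0.511% of all FPKM in CSR and 0.701, 0.709 and 0.580% in control. Control library 3 was nearest to CSR, and control libraries 1 and 2, which stood apart from CSR across the table, were farthest from it. Neither measure overlaps between groups, and each had an exact two-sided permutation p of 0.1, the smallest that 3 against 3 samples allow. FPKM are shares of a library, and the elongating spermatid list holds far more of it than the carriers. The sum of that list was also lowest in control libraries 1 and 2, though its genes *Tnp1* and *Hook1* were not. The part of that list in the carrier values, and that of the other marker lists, was not tested.

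**Figure D2:**
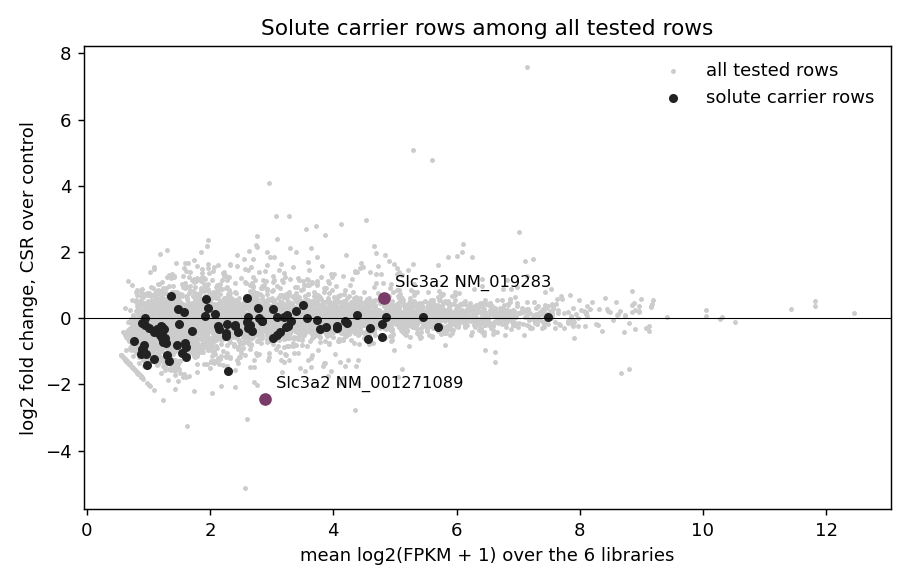
Each point is a tested row, with its mean log2(FPKM + 1) over the 6 libraries on the horizontal axis and its log2 fold change, CSR over control, on the vertical axis. Dark points are the 91 tested carrier rows, of which 67 lie below 0, and the larger points are the *Slc3a2* rows at -2.43 and 0.61.

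Values at 0 went the same way. CSR libraries 1 to 3 held 26, 22 and 24 carrier rows at 0, and control libraries 1 to 3 held 2, 6 and 2. As shares these were 20.4 to 24.1% in CSR and 1.85 to 5.56% in control, next to 14.3 to 20.2% and 3.92 to 6.03% over all rows. In 33 carrier rows (30.6%) at least 1 CSR library was at 0 and no control library was, next to 1331 of all 7016 rows (19.0%), and the highest control mean among them was 3.92 FPKM. The reverse held for 76 of all rows and for 1 carrier row, *Slc37a4* (NM_031589), the glucose-6-phosphate carrier of the endoplasmic reticulum, named after its values were seen. It read 0.683, 1.16 and 1.57 FPKM in CSR, against 0.399, 0 and 0.586 in control, and was too low to be tested. The most frequent pattern, in 8 carrier rows, was a 0 in CSR libraries 1 and 3 alone. An exact 0 can be a failed estimate. Rows with a 0 that passed the level filter were tested and counted like the others, and untested rows at 0 are described by their values only.

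**Figure D3:**
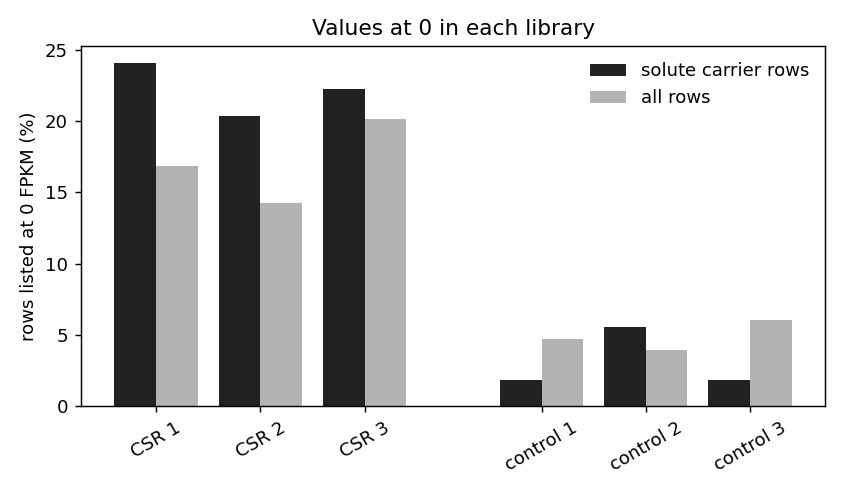
Percent of rows listed at 0 FPKM in each library, for the 108 carrier rows and for all 7016 rows. The CSR libraries stand at 20.4 to 24.1% for carriers and the control libraries at 1.85 to 5.56%.

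In 3 carrier rows each CSR library was listed at 0 while each control library had a value, a share of 2.78% next to 2.88% of all rows, and each was too low to be tested. *Slc46a1* (NM_001013969), the proton-coupled folate carrier, read 0.868, 0.915 and 1.03 FPKM in control. *Slc30a7* (NM_001191715), which loads zinc into the early secretory pathway, read 0.817, 0.299 and 0.584 FPKM in control. *Slc39a8* (NM_001011952), which imports zinc and manganese, read 1.35, 0.156 and 0.159 FPKM in control.

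Levels spanned a wide range. Of the 108 rows 9 had a mean of 20 FPKM or more over the 6 libraries, 10 lay at 10 to 20, 23 at 5 to 10, 49 at 1 to 5 and 17 under 1. In the 66 rows above 0 in all libraries the median coefficient of variation was 16.5% among CSR and 17.0% among control libraries.

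**Figure D4:**
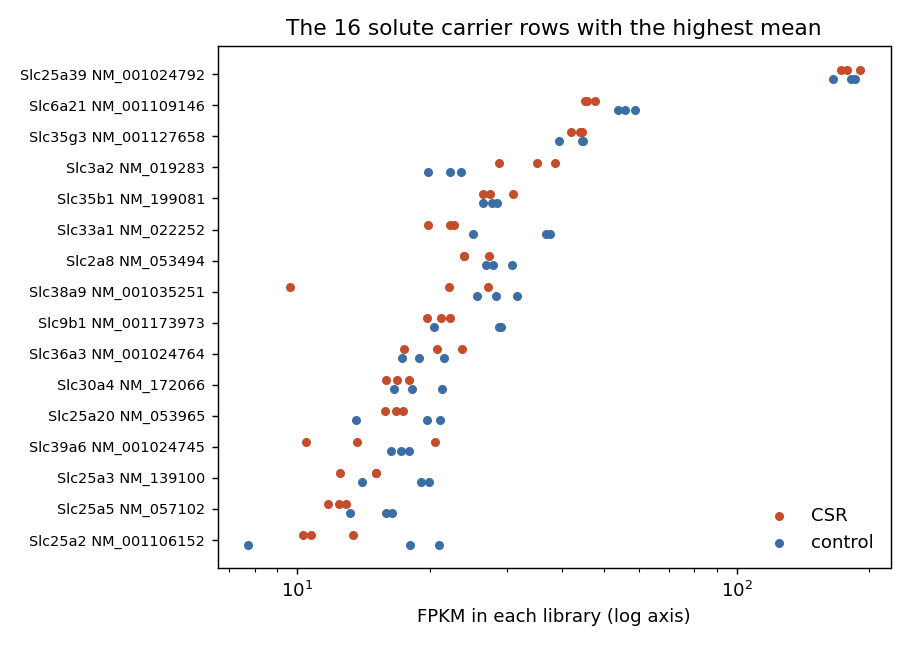
FPKM on a log axis of the 16 carrier rows with the highest mean, with 1 point per library, CSR above control in each row. *Slc25a39* stands alone at 166 to 191 FPKM, and in *Slc3a2* NM_019283 the CSR points lie at 28.8 to 38.6 and the control points at 19.9 to 23.5 FPKM.

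Amino acid and peptide carriers had 19 rows of 18 genes and 17 tested rows, 11 negative and 6 positive, with a median log2 fold change of -0.37. The 6 positive rows were above 0 in all libraries. Among the negative rows, *Slc1a2*, *Slc15a4*, *Slc38a2*, *Slc38a6*, *Slc6a8*, *Slc1a3* and *Slc7a11* were at 0 in part of the CSR libraries and in no control library. The median is the value of *Slc1a3*, listed at 0 in CSR library 3, so the class direction leans on values at 0. The class summed to 173, 187 and 152 FPKM in CSR, against 197, 205 and 190 FPKM in control. *Slc6a21* (NM_001109146), of the family of sodium- and chloride-coupled carriers, was the second highest carrier row. It read 45.6, 45.1 and 47.5 FPKM in CSR, against 55.7, 58.6 and 53.6 in control, groups that do not overlap, without passing (log2 fold change -0.27, standard error 0.08, adjusted p 0.343). *Slc38a9* (NM_001035251), a lysosomal arginine sensor that signals to mTORC1, read 27.2, 22.2 and 9.61 FPKM in CSR, against 28.3, 31.6 and 25.7 in control, with CSR library 3 far below the rest. *Slc1a4* (NM_198763), an exchanger of small neutral amino acids, read 12.0, 11.9 and 12.4 FPKM in CSR, against 10.2, 6.79 and 10.03 in control, 1 of the 3 tested rows whose CSR values all lay above control (adjusted p 0.372). *Slc36a3* (NM_001024764), of the family of proton-coupled amino acid carriers, read 17.4, 23.7 and 20.8 FPKM in CSR, against 17.3, 18.9 and 21.6 in control. *Slc6a6* (NM_017206), the taurine carrier, was under 1.5 FPKM in all libraries and at 0 in CSR libraries 1 and 2 and control library 2.

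Mitochondrial carriers of the Slc25 family had 23 rows of 22 genes, of which 22 rows were tested, 15 negative and 7 positive, with a median of -0.23. They made up the largest class sum, 337, 310 and 308 FPKM in CSR, against 328, 358 and 319 in control, which overlap. *Slc25a39* (NM_001024792), which brings glutathione into mitochondria, was the highest carrier row, rank 100 of all 7016 rows. It read 191, 178 and 173 FPKM in CSR, against 166, 186 and 182 in control, with no separation of the groups (log2 fold change 0.02, standard error 0.09, adjusted p 0.895). *Slc25a20* (NM_053965), the carnitine-acylcarnitine carrier of fatty acid oxidation, read 15.9, 17.4 and 16.8 FPKM in CSR, against 19.7, 21.1 and 13.6 in control. *Slc25a30* (NM_001013187) read 7.22, 5.81 and 6.68 FPKM in CSR, against 9.49, 9.96 and 8.19 in control, without overlap and without passing (adjusted p 0.363). *Slc25a45* (NM_001271179) read 1.05, 0 and 0 FPKM in CSR, against 1.82, 1.70 and 1.56 in control (adjusted p 0.363).

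*Slc25a3*, the mitochondrial phosphate carrier, had 2 rows, like *Slc3a2*. Its main row NM_139100 read 15.1, 15.1 and 12.5 FPKM in CSR, against 19.9, 19.1 and 14.0 in control, with control library 3 inside the CSR range. The minor row NM_001270788 was listed at 0 in CSR libraries 1 and 2 and read 3.66 FPKM in CSR library 3, against 2.54, 2.64 and 2.75 FPKM in control. The test of the rows against each other did not pass (relative log2 fold change -0.84 for NM_001270788, adjusted p 0.892 by limma's diffSplice). Without CSR library 3, the only CSR library above 0, it was -1.67 with an adjusted p of 0.00995. The CSR values of NM_001270788 left in that fit were all listed at 0, without spread, so its p decides nothing. With any other library left out the adjusted p by diffSplice was 0.862 to 0.985.

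Carriers of nucleosides and nucleotide sugars had 13 tested rows, 9 negative and 4 positive, with a median of -0.22, and summed to 100.4, 92.0 and 93.4 FPKM in CSR, against 101, 105 and 97.4 in control. *Slc35g3* (NM_001127658), of the nucleotide sugar family, read 41.9, 44.4 and 44.1 FPKM in CSR, against 39.4, 44.4 and 44.8 in control. *Slc35b1* (NM_199081), which exchanges ATP and ADP across the endoplasmic reticulum membrane, read 30.9, 26.5 and 27.5 FPKM in CSR, against 28.5, 26.5 and 27.7 in control. Both of these high rows overlap between groups. *Slc29a1* (NM_031684), a nucleoside carrier of the cell surface, read 4.21, 5.82 and 3.97 FPKM in CSR, against 7.53, 6.92 and 4.87 in control. *Slc35a3* (NM_001012082), which carries UDP-N-acetylglucosamine into the Golgi, was at 0 in CSR libraries 1 and 2 and at 0.732 FPKM in CSR library 3, against 2.63, 2.93 and 1.28 in control, without overlap (adjusted p 0.262).

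Among carriers of sugars and monocarboxylates 4 of 5 rows were tested and all 4 had negative log2 fold changes, with none called. *Slc2a8* (NM_053494), an intracellular glucose carrier found in rodent testis, read 27.3, 23.96 and 23.9 FPKM in CSR, against 26.8, 30.8 and 27.8 in control. *Slc16a1* (NM_012716), the monocarboxylate carrier MCT1, read 7.23, 5.35 and 5.76 FPKM in CSR, against 10.5, 9.99 and 7.16 in control, which overlap at control library 3 and CSR library 1 (log2 fold change -0.51, standard error 0.19, adjusted p 0.363). *Slc5a3* (NM_053715), the sodium-coupled myo-inositol carrier, read 1.12, 1.08 and 0.414 FPKM in CSR, against 1.42, 1.91 and 1.13 in control, groups that lie side by side without overlap (adjusted p 0.462). The class summed to 36.3, 32.9 and 31.7 FPKM in CSR, against 40.7, 43.5 and 37.8 in control.

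Carriers of ions and pH had 10 tested rows, 9 negative and 1 positive, and the lowest class median, -0.57, with none called. Their sums were 47.0, 49.0 and 47.7 FPKM in CSR, against 64.9, 66.9 and 54.7 in control, without overlap. The sums of the amino acid and peptide, the sugar and monocarboxylate, and the organic ion, vitamin and lipid classes did not overlap either. In the amino acid and the organic ion classes this hung on a single row. The amino acid sums overlap once *Slc3a2* NM_001271089 is taken out, and the organic ion sums once *Slc33a1* is. *Slc9b1* (NM_001173973), a sodium-hydrogen exchanger of mouse sperm, read 22.3, 19.7 and 21.2 FPKM in CSR, against 29.1, 28.8 and 20.5 in control, where control library 3 falls among the CSR values (adjusted p 0.420). *Slc20a1* (NM_031148), a sodium-phosphate carrier, read 3.81, 3.75 and 1.81 FPKM in CSR, against 5.19, 5.67 and 3.69 in control. *Slc4a2* (NM_017048), a chloride-bicarbonate exchanger, read 0, 1.18 and 2.07 FPKM in CSR, against 1.57, 2.69 and 2.32 in control.

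Zinc and other metal carriers had 20 rows, of which 13 were tested, 10 negative and 3 positive, with a median of -0.19, and summed to 81.6, 88.7 and 69.1 FPKM in CSR, against 95.7, 97.0 and 86.6 in control. *Slc30a4* (NM_172066), which moves zinc into vesicles, read 17.9, 16.8 and 15.9 FPKM in CSR, against 18.2, 21.3 and 16.6 in control. *Slc39a6* (NM_001024745), a zinc importer, read 13.7, 20.6 and 10.5 FPKM in CSR, against 18.0, 17.2 and 16.3 in control, with the CSR libraries on both sides of control. *Slc30a1* (NM_022853), the zinc exporter of the cell surface, read 9.40, 7.40 and 7.12 FPKM in CSR, against 12.8, 9.87 and 6.66 in control. *Slc39a10* (NM_001108796), another zinc importer, read 3.03, 4.54 and 3.57 FPKM in CSR, against 2.00, 1.70 and 2.74 in control. It was the third tested row with all CSR values above control (log2 fold change 0.58, standard error 0.22, adjusted p 0.365).

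The remaining carriers, of organic ions, vitamins, lipids and acetyl-CoA, had 15 rows, of which 11 were tested, 8 negative and 3 positive, with a median of -0.50. They summed to 51.6, 51.1 and 45.0 FPKM in CSR, against 78.9, 78.4 and 55.2 in control, with control library 3 nearest to CSR. *Slc33a1* (NM_022252), which carries acetyl-CoA into the endoplasmic reticulum, read 22.8, 19.8 and 22.2 FPKM in CSR, against 37.6, 36.8 and 25.1 in control. Its groups do not overlap, with control library 3 nearest to CSR, and it did not pass (log2 fold change -0.58, standard error 0.17, adjusted p 0.363). Without control library 3 it was called (log2 fold change -0.76, adjusted p 0.0298 by limma). That fit, with control libraries 1 and 2 as the only controls, called 259 rows of the whole table, against 25 with all libraries. *Slc22a5* (NM_019269), the carnitine carrier of the cell surface, read 7.81, 7.81 and 2.79 FPKM in CSR, against 9.62, 10.6 and 7.02 in control. *Slc27a1* (NM_053580), a fatty acid transport protein, read 7.42, 5.09 and 7.14 FPKM in CSR, against 3.17, 6.81 and 2.72 in control. *Slc27a5* (NM_024143), a bile acid and fatty acid CoA ligase, was at 0 in CSR libraries 1 and 3 and read 1.72 FPKM in CSR library 2, against 2.33, 2.76 and 1.79 in control. *Slc10a7* (NM_001010948) read 1.19, 0 and 0 FPKM in CSR, against 1.97, 1.78 and 1.36 in control.

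Both rows of *Slc44a1*, a choline carrier, were too low to be tested. NM_001033852 was at 0 in CSR libraries 1 and 2 and read 0.560 FPKM in CSR library 3, against 2.18, 2.55 and 0.885 in control. NM_053492 was at 0 in the same 2 CSR libraries and read 0.383 FPKM in CSR library 3, against 1.69, 1.46 and 0.241 in control. The sum of both passed the level filter, and limma put its log2 fold change at -1.58 (adjusted p 0.360, standard error 0.46). *Slc7a6os* (NM_139328), the member that is no carrier, read 4.60, 4.62 and 2.34 FPKM in CSR, against 5.07, 5.36 and 5.62 in control.

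**Figure D5:**
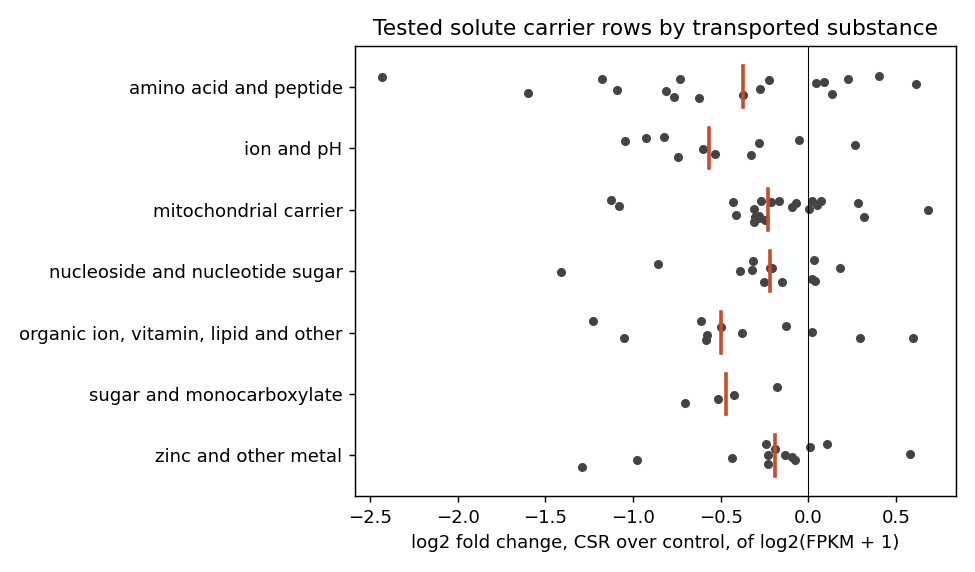
Log2 fold change, CSR over control, of each tested carrier row by the kind of substance carried, with a vertical bar at the median of each class. The medians run from -0.57 for ions and pH to -0.19 for zinc and other metals, and the lowest point is *Slc3a2* NM_001271089 at -2.43.

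Of 21 carriers listed for their known role in sperm or germ cells, 8 were in the table and 7 were tested. The log2 fold change was negative in 6 and positive in 1, none was called, and the median was -0.24. The 8 are *Slc2a8*, *Slc9b1*, *Slc36a3*, *Slc39a6*, *Slc30a1*, *Slc16a1*, *Slc4a2* and *Slc6a6*, whose values are given with their classes. The other 13 were not analysed here.

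Genes that work with carriers were followed as a list of partners and ion pumps, with 17 rows, 9 positive and 8 negative, none called, and a median log2 fold change of 0.01. *Bsg*, which encodes basigin, read 171, 181 and 185 FPKM in CSR, against 140, 145 and 182 in control. *Atp1a4* (NM_022848), the sodium pump subunit of sperm, read 108, 107 and 109 FPKM in CSR, against 112, 129 and 106 in control, and *Vdac3*, a channel of the outer mitochondrial membrane, read 137, 122 and 53.9 FPKM in CSR, against 87.6, 77.3 and 56.5 in control. All of these overlap between groups. Of the 17 rows, 2 were lower in CSR without overlap and 0 higher, and neither of the 2 was called (limma, adjusted p 0.363 each). *Atp1b3* read 36.6, 32.9 and 32.9 FPKM in CSR, against 53.0, 52.3 and 37.1 in control. *Atp6v1a* read 2.81, 2.71 and 2.37 FPKM in CSR, against 4.33, 5.06 and 3.39 in control. Over all tested rows 12.6% were lower in CSR without overlap. *Slco6c1*, the only organic anion carrier of the Slco family in the table, read 16.1, 18.1 and 11.3 FPKM in CSR, against 18.3, 18.6 and 18.0 in control.

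The amino acid response list, whose factors switch on *Slc3a2* and *Slc7a11* when amino acids are short, had 5 of 11 genes in the table and 5 tested rows, 4 negative and 1 positive, with none called. *Asns*, asparagine synthetase, read 36.4, 38.3 and 47.5 FPKM in CSR, against 39.3, 47.2 and 34.0 in control. *Ddit3* (NM_001109986), the stress factor CHOP, read 21.8, 19.8 and 18.2 FPKM in CSR, against 19.1, 21.5 and 22.1 in control. *Atf4*, the factor at the head of the response, read 10.8, 1.57 and 8.34 FPKM in CSR, against 7.29, 7.96 and 8.14 in control, with CSR library 2 far below the rest.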

How the data were processed

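RNA of rat testis was measured in 3 CSR and 3 control libraries. The deposited values are FPKM for RefSeq transcripts, made by the authors with Trimmomatic, HISAT2 and StringTie on rn6, per the submitters' processing notes; for their settings and for how rows were selected the entry is "not given in the sources used here". The libraries were made from poly(A) RNA, per the labels' protocols. No whole-read steps were found among low values, so depth, and with it counting precision, is unknown. The methylation files were not used here, since their positions cannot be tied to genes without an rn6 annotation.

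Symbols came from the RefSeq table of assembly GRCr8, which matched 6911 of 7016 identifiers. The test, two-sided on log2(FPKM + 1), was limma 3.58.1 (R 4.3.3, trended variance) for rows reaching 1 FPKM in 3 or more libraries, with Benjamini-Hochberg adjustment over all 5657 rows and a threshold of 0.05. Adjusted p-values are from this fit unless another is named. Fold changes on this scale understate the change of low rows. Named rows were those called, the 10 largest rises and falls without overlap of the groups, the 3 highest of each class, genes with 2 rows, rows at 0 in a whole group, and carriers known in sperm. Of these, 1 row is not reported here. For lists, the 3 highest rows are given, and for marker lists the called rows. The members, classes and lists were chosen with earlier results of these data known. The sums of rows, the test within genes and the fits with control library 3 as the only control were chosen after seeing the data. Simulated data were used to check the fits. Alternatives covered filters, pseudocounts, scalings, the trend, the replicate block and leaving out each library.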

Additional observations from a re-analysis of the deposited data

How the results depend on the processing

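The fall of *Slc3a2* NM_001271089 kept its direction in 21 of 21 alternatives, with log2 fold changes of -2.91 to -1.56. It passed in 18 of them, and the adjusted p was 0.0616 without control library 2, 0.185 with control library 3 as the only control and 0.0776 with the replicate number as a block. Its change relative to NM_019283 passed in all 13 alternatives run for it, from -3.46 to -2.10 with adjusted p-values of 7.86e-06 to 0.0147. The replicate numbers did not pair the libraries: deviations of same-numbered libraries correlated at 0.032, 0.009 and 0.042. The block left 0 called rows in the table and 0 carriers. Over libraries left out in turn, 4 to 259 rows and 0 to 2 carriers were called, and the table count was 4 without control library 2, 8 when control library 1 was dropped, 259 when control library 3 was, 7 when CSR library 3 was and 14 when CSR library 2 was. Among other settings the table held 54 called rows with a filter at 0.5 FPKM (14 higher and 40 lower in CSR), 77 without the trend (17 higher and 60 lower), 36 without a filter (13 higher and 23 lower), 16 with control library 3 as the only control (13 higher and 3 lower), 16 among rows above 0 in all libraries (12 higher and 4 lower), 7 with control libraries 1 and 2 averaged, and 11 each with a filter at 5 FPKM, a pseudocount of 0.1 and libraries scaled to the same sum. The main 25 calls were 13 higher and 12 lower, those under quantile normalization 11 higher and 6 lower, and those without control library 3 were 169 higher and 90 lower. With rows of a gene summed, or control library 3 as the only control, 0 carriers were called. The causes were not tested.

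The carrier median stayed negative in 22 of 22 alternatives. It was -0.13 with a filter at 5 FPKM, -0.14 with a pseudocount of 5, -0.42 with libraries scaled to the same sum, where the median of all rows also moved, to -0.19, and -0.34 to -0.16 with a library left out, the highest without CSR library 3. Rows near 0 that were not called changed sign. Under quantile normalization *Slc25a39* stood at -0.091, *Slc35g3* at -0.07 and *Slc35b1* at -0.028. With scaling to library medians *Slc25a39* and *Slc35g3* stood at -0.001. With equal sums *Slc36a3* stood at -0.014, *Slc25a39* and *Slc35g3* at -0.086 and *Slc35b1* at -0.074. With control libraries 1 and 2 averaged *Slc25a20* stood at 0. With a library left out *Slc25a39* ranged from -0.027 to 0.056, *Slc35b1* from -0.03 to 0.078, *Slc36a3* from -0.011 to 0.201, *Slc35g3* from -0.036 to 0.055 and *Slc25a20* from -0.277 to 0.024. Having 3 libraries a group and unknown depth limits all comparisons.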
